A study of Mus musculus with 12 samples.

Results

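Clustered histone genes form 67 of the 21951 protein-coding genes in the GENCODE M21 annotation of the mouse genome (mm10, GRCm38). As a class they are switched on with DNA replication, but the 67 include 3 testis histone genes (Hist1h1t, Hist1h2aa and Hist1h2ba). Members were taken as all protein-coding genes whose symbol begins with Hist1h, Hist2h, Hist3h or Hist4h. By type they are 6 H1, 18 H2A, 18 H2B, 12 H3 and 13 H4 genes. By place, 54 lie on chromosome 13 (Hist1), 10 on chromosome 3 (Hist2), 2 on chromosome 11 (Hist3) and 1 on chromosome 6 (Hist4). YY1 peaks that overlapped a gene body or lay within 1 kb of it were assigned to that gene, so a peak could belong to several neighbours.

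YY1 is a DNA-binding protein with zinc fingers that acts at promoters and at enhancers. Its binding was mapped by ChIP-seq in Lin− bone marrow cells, which are the stem and progenitor cells left after mature blood cells are removed. The cells came from female mice of the strain 129Sv4/Jae x B6 at an age of 3 months, with 2 libraries from wild-type (WT) mice and 2 from XistΔ/Δ mice. In XistΔ/Δ mice a floxed Xist allele (Xist2lox) had been recombined by Vav-iCre, a Cre recombinase driven by sequences of the blood-specific gene Vav1, so that blood cells lose Xist, the RNA that silences the inactive X chromosome. WT mice were littermates, and the labels do not say whether they carried the transgene. The study's methods call the replicates biological, and the labels do not name the animals. The 8 samples of histone marks in the series of 12 were not analysed here.

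Core histones H2A, H2B, H3 and H4 form the protein spool of the nucleosome, and linker histones of the H1 type bind the DNA between nucleosomes. A cell needs new histones for each round of DNA synthesis, and vertebrate genomes supply them from clusters of short intronless genes whose mRNAs end in a stem-loop in place of a poly(A) tail. Many H2A and H2B genes sit head to head and share the short stretch between their starts. The genes of a type encode almost the same protein, and their coding sequences therefore resemble each other closely. Histone gene promoters commonly carry CCAAT boxes and TATA boxes, H2B promoters an octamer bound by Oct-1 (Pou2f1), and H1 promoters an element named the H1 box.

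The libraries differed in depth by replicate number. The headers gave 24.9 and 50 M tags (aligned reads as HOMER counts them) for WT replicates 1 and 2, and 23.1 and 59.5 M for XistΔ/Δ replicates 1 and 2. The lists held between 9553 and 18113 peaks, more in replicate 2 of both genotypes. A peak covered the start of Xist in both WT libraries (3083 and 3222 bp wide) and in neither XistΔ/Δ library. Among 7 genes listed as lineage markers, 2 had a peak in at least 2 libraries (Itgam, and Ptprc, which stem and progenitor cells also express). Among 6 progenitor genes 4 had one, and Runx1, Tal1 and Meis1 had it in all 4 libraries. Kit had a peak in 2 libraries (627 bp in WT replicate 1 and 501 bp in XistΔ/Δ replicate 2). Gata2 and Cd34 had a peak of 501 bp in 1 library each. Over all protein-coding genes, 48.8% had a peak in at least 2 libraries. A peak near a gene is not a measure of its expression.

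Promoter sequences of members under wide peaks, and of members without any peak, are shown first. The first stretch lies between the starts of Hist1h2bl, an H2B gene on the minus strand, and Hist1h2ai, an H2A gene on the plus strand. Among the regions of H2A and H2B genes, the region of this head-to-head promoter has the highest mean width rank over the 4 libraries. The stretch is 280 bases long (chr13:21716143-21716422, GRCm38, plus strand, first bases of both genes included). It is followed by the RefSeq promoters (250 bases before to 50 after the start, GRCm38.p6) of Hist1h1a (chr13:23763418-23763717, plus strand) and Hist1h4a (chr13:23761200-23761499, minus strand), the H1 and H4 genes in the region with the highest mean width rank. In WT replicate 1 the peak at Hist1h1a itself (1514 bp) was narrower than that of Hist1h1c (2451 bp), and the widest peak of the region (2435 bp) lay at Hist1h4a and Hist1h3a. Capitals mark CCAAT on either strand and TATAAA.
Hist1h2bl to Hist1h2ai: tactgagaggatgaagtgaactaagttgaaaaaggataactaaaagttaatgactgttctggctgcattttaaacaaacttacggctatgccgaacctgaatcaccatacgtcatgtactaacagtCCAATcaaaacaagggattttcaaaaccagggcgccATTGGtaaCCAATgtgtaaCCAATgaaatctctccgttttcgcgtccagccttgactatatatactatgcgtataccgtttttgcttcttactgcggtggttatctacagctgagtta
Hist1h1a: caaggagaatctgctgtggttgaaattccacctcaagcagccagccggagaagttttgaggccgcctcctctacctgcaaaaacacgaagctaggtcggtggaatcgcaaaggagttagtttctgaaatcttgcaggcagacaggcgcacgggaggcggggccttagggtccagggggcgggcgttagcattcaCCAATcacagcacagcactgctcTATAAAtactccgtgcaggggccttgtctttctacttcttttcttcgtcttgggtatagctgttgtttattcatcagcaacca
Hist1h4a: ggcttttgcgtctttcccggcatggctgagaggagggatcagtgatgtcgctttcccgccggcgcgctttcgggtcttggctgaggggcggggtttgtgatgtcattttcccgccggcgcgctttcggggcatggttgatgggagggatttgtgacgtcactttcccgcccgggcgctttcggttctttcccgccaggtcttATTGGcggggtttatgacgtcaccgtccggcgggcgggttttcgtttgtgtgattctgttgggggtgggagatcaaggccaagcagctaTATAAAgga
CCAAT occurred 4 times between Hist1h2bl and Hist1h2ai and 1 time in each of the promoters of Hist1h1a and Hist1h4a.

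The stretches between the starts of Hist1h2bq and Hist1h2ao (chr13:21810197-21810465, plus strand) and of Hist1h2ap and Hist1h2br (chr13:21833507-21833743, minus strand) are shown because no library had a peak there. They are copies of each other in opposite orientation.
Hist1h2bq to Hist1h2ao: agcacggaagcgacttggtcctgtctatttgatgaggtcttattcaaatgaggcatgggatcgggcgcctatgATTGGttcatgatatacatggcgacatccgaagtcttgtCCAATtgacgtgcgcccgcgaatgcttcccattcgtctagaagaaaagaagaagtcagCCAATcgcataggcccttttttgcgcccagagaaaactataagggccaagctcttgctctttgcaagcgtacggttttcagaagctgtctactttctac
Hist1h2br to Hist1h2ap: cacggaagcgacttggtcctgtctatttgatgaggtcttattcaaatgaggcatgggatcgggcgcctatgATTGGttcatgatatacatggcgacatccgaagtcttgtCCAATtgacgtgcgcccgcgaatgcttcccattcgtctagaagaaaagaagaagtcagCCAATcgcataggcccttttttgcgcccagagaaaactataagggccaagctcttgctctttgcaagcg
All 237 aligned bases of the shorter stretch were identical in the longer one, and each held CCAAT 3 times.

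YY1 peaks lay at most of the histone genes. In all, 57 of the 67 members (85.1%) had a peak in at least 2 of the 4 libraries, where 48.8% of all protein-coding genes had one. A peak was found at 47 members (70.1%) in WT replicate 1, 57 (85.1%) in WT replicate 2, 51 (76.1%) in XistΔ/Δ replicate 1 and 58 (86.6%) in XistΔ/Δ replicate 2. Other protein-coding genes had a peak in 40.3%, 49.3%, 40.3% and 51% of cases in the same order. In all 4 libraries 44 members (65.7%) had a peak, against 36.5% of the other genes. Counted from the annotated gene start in place of the body, 56 members (83.6%) had a peak within 1 kb in at least 2 libraries, against 42.6% of all protein-coding genes. These counts describe the lists, and the members are not independent, because 37 to 41 distinct peaks per library served 47 to 58 members and 15 to 21 of those peaks touched 2 or more of them.

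**Figure D1:**
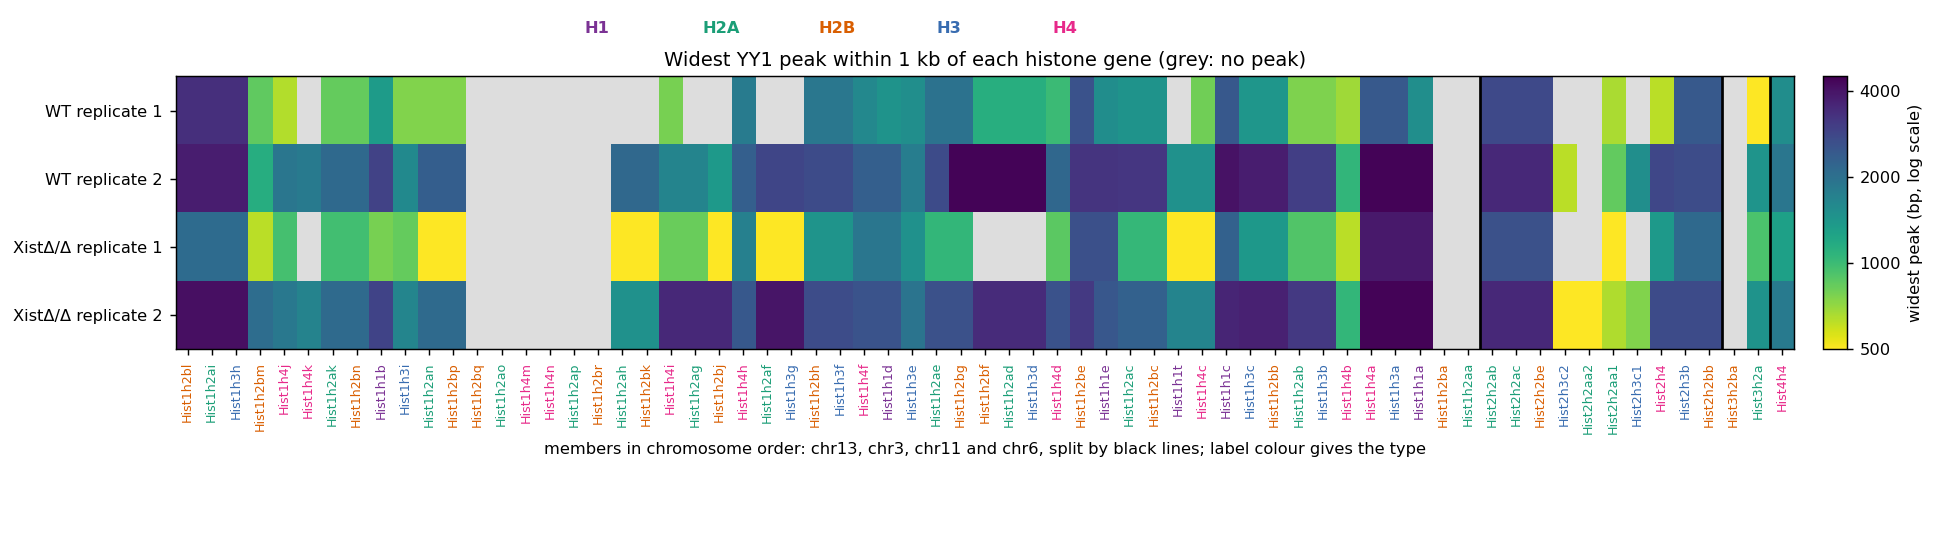
Width in bp (log colour scale) of the widest YY1 peak within 1 kb of each of the 67 histone genes (columns, in chromosome order, label colour giving the type) in the 4 libraries (rows), with grey for no peak. A block of 6 neighbouring genes on chromosome 13, the pair Hist1h2ba and Hist1h2aa, and Hist3h2ba are grey in all 4 libraries, and widths are larger in the replicate 2 libraries of both genotypes.

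Peaks over histone genes had a larger median width than all peaks of the same library, most of all in the deeper libraries. Their median width was 1133 bp in WT replicate 1, 2308 bp in WT replicate 2, 906 bp in XistΔ/Δ replicate 1 and 2269.5 bp in XistΔ/Δ replicate 2. The medians over all peaks were 892, 925, 777 and 892 bp. All peaks include those away from gene starts, and 15 to 21 of the histone peaks in a library touched 2 or more members. Both genotypes showed the same order, with the wider peaks in replicate 2.

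Every type had members with a peak in each library. Linker histone H1 genes had a peak in 5 of 6 members in WT replicate 1 and in 6 of 6 in each of the other libraries. H2A genes had one in 11 and 14 of 18 members in WT replicates 1 and 2 against 13 and 15 in XistΔ/Δ. H2B genes had one in 12 and 14 of 18 members in WT against 13 and 14 in XistΔ/Δ. Over all members, H2A and H2B are the types with the lowest shares, and they hold 7 of the 9 members without any peak. H3 genes had one in 9 and 12 of 12 members in WT and again in 9 and 12 in XistΔ/Δ. H4 genes had one in 10 and 11 of 13 members in both genotypes. In the replicate 2 libraries every H1 and every H3 gene thus had a peak within 1 kb. The 2 H4 genes without one were Hist1h4m and Hist1h4n. Without the 6 members in the repeat described below, the order of types was not the same in every library. In XistΔ/Δ replicate 1 the shares were then 81.2% (H2A and H2B) and 75% (H3). In WT replicate 1 they were 68.8% (H2A) and 75% (H2B and H3). In the replicate 2 libraries H2A and H2B remained the lowest. No test of the difference between types was run, since neighbours of different types share peaks.

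**Figure D2:**
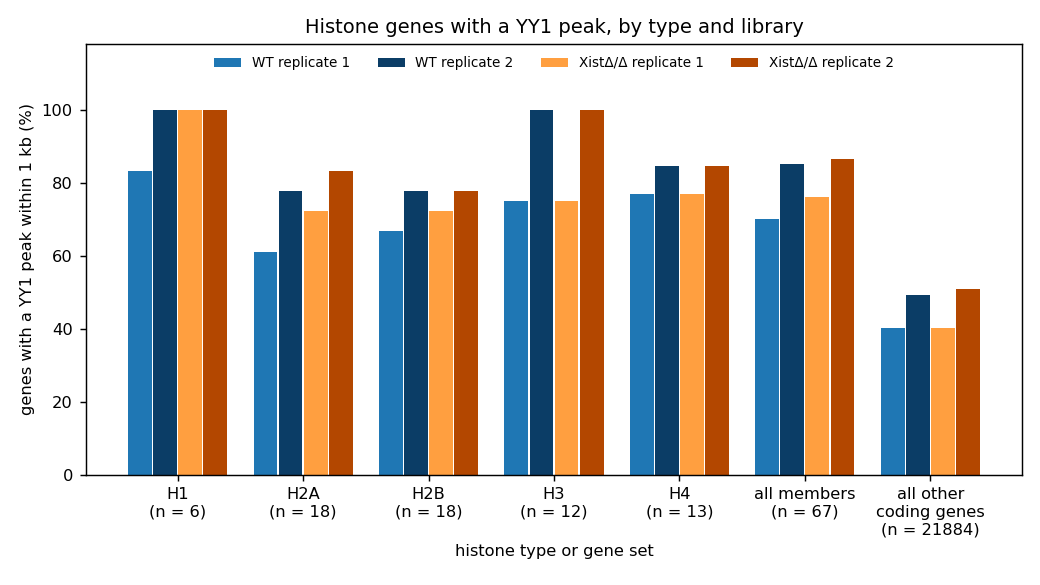
Share of genes with a YY1 peak within 1 kb (%, bars, 1 per library) for each histone type, all 67 members and all other protein-coding genes. The lowest bar of any type is 61.1% (H2A, WT replicate 1), above the highest of the other genes, which is 51% in XistΔ/Δ replicate 2.

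Some of the widest peaks lay at linker histone genes, in part shared with core histone genes. Hist1h1a (ENSMUSG00000049539.3, chromosome 13, 23763666 to 23764406, plus strand) had peaks of 1514 and 4403 bp in WT against 3875 and 4413 bp in XistΔ/Δ, for replicates 1 and 2. Those of 4403, 3875 and 4413 bp also lay at Hist1h4a and Hist1h3a. In WT replicate 1 that stretch was called as 2 peaks, of which the other was 2435 bp wide. Hist1h1c had peaks of 2451 and 4029 bp in WT against 2284 and 3584 bp in XistΔ/Δ. Both genes were covered in every library, and in both the WT library of replicate 2 had a wider peak than that of replicate 1.

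The other H1 genes varied more between libraries or had narrower peaks. Hist1h1e had 1538 and 3237 bp in WT against 2626 and 2487 bp in XistΔ/Δ. Hist1h1d had peaks inside its gene model of 1456 and 2308 bp in WT against 1583 and 2264 bp in XistΔ/Δ. A separate region upstream of it, at Hist1h4f, had 1614 and 2321 bp in WT against 1905 and 2575 bp in XistΔ/Δ. Hist1h1b had 1344 and 2914 bp in WT against 785 and 2895 bp in XistΔ/Δ. These widths in bp overlapped between genotypes at Hist1h1e, Hist1h1d and Hist1h1b. The width percentiles of the region at Hist1h4f, given below, did not. Hist1h1t, the testis-specific H1, had no peak within 1 kb in WT replicate 1. In WT replicate 2 it had 1 of 1486 bp, and in XistΔ/Δ peaks of 501 and 1670 bp. None of these overlapped Hist1h1t, which ends at 23696725. They lay past its end in a region (23697311 to 23698980) that spans Hist1h4c.

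Among core histones, the widest regions held several types at once. A region is the merged stretch of overlapping peaks of the 4 libraries that was called in at least 2 of them. A region of 4462 bp on chromosome 13 (23759876 to 23764337) held Hist1h4a, Hist1h3a and Hist1h1a, and had the highest mean width rank among the regions of H1, H3 and H4. A region of 4101 bp (21714683 to 21718783) held Hist1h2bl, Hist1h2ai and Hist1h3h and had the highest mean rank of H2A and H2B. Its widest peaks were 3360 and 3779 bp in WT against 2089 and 4101 bp in XistΔ/Δ. In XistΔ/Δ replicate 1 it was called as 2 peaks, and as 1 in each other library. Among histone regions with a peak, 6 of 31 in WT replicate 1 and 9 of 32 in XistΔ/Δ replicate 1 were split into 2 or more peaks. In replicate 2 this held for 1 of 36 in WT and 2 of 36 in XistΔ/Δ. All widths given for genes and regions are those of the widest single peak, so a split makes them smaller.

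The stretch with the most members was 4387 bp long (23572966 to 23577352) and lay at Hist1h2bg, Hist1h2bf, Hist1h2ad and Hist1h3d. Its widest peak measured 1133 and 4387 bp in WT and 3422 bp in XistΔ/Δ replicate 2, and XistΔ/Δ replicate 1 had none. Another 5 regions held 3 members each. They included Hist1h4i with Hist1h2ag and Hist1h2bj, Hist1h2ae with Hist1h2bg and Hist1h2bf, and Hist2h2ab with Hist2h2ac and Hist2h2be. In all, 19 of the 36 histone regions held 2 or more members.

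Divergent pairs, in which 2 members on opposite strands start less than 1 kb apart and point away from each other, numbered 13 and held 26 members. In 12 of them the partners were an H2A and an H2B gene, and in the other they were Hist1h2bh and Hist1h3f. Their starts lay between 176 and 660 bp apart (median 268 bp). A peak in at least 2 libraries was found at 20 of the 26 paired members (76.9%) and at 37 of the 41 other members (90.2%). Of the 6 paired members without one, 4 lie in the repeat described below and 2 are the testis pair. Among the 11 pairs outside that repeat, a single peak covered both starts in 6 and 10 pairs in WT replicates 1 and 2 against 8 and 10 pairs in XistΔ/Δ replicates 1 and 2. In the replicate 2 libraries the only one of the 11 not covered was the testis pair.

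Peak cover was higher at the start codon than 1 kb to either side of it. Of the 61 members outside the repeat, the start codon lay in a peak for 37 (60.7%) and 53 (86.9%) in WT replicates 1 and 2 against 46 (75.4%) and 53 (86.9%) in XistΔ/Δ. At 1 kb before the start codon the shares were 34.4% and 67.2% in WT against 27.9% and 60.7% in XistΔ/Δ. At 1 kb after it they were 29.5% and 63.9% in WT against 27.9% and 60.7% in XistΔ/Δ. In the replicate 2 libraries the cover stayed high through the coding sequence, with 86.9% and 85.2% of members covered at the last coding base. In XistΔ/Δ replicate 1 the cover fell from 75.4% at the start codon to 47.5% at the last coding base. In WT replicate 1 the value there was 52.5%.

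**Figure D3:**
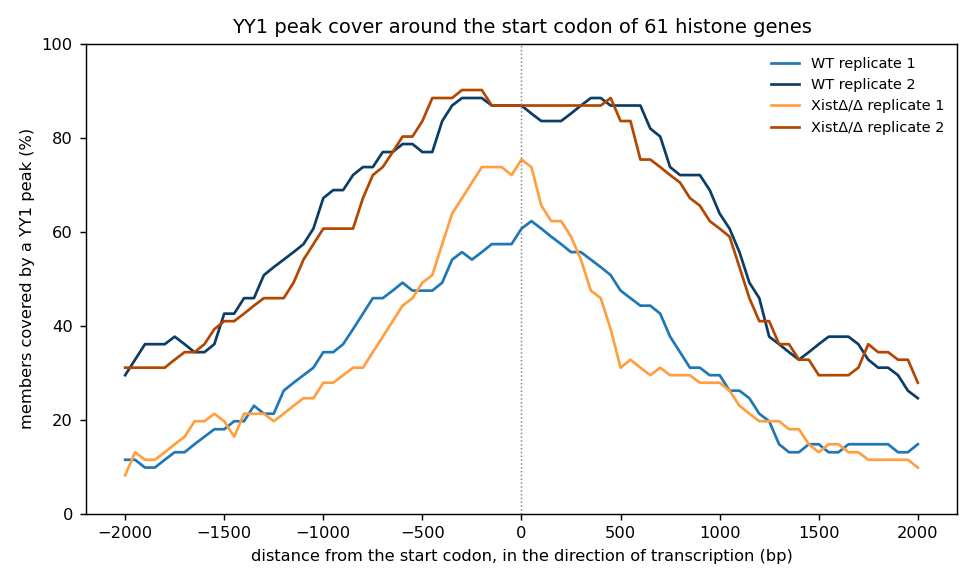
Share of 61 histone genes (%, vertical axis) covered by a YY1 peak at each distance from the start codon (bp, horizontal axis, positive in the direction of transcription), with a line per library. All 4 lines are highest within about 500 bp of the start codon, and the replicate 2 lines reach 88.5% and 90.2%.

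The H1 genes and the core histone genes differed in how much of their coding sequence occurs only once in the genome. Over 50-base windows, the unique share of the coding sequence had a median of 89% in H1 genes, with a range of 73.5% to 100%. It was 15.8% in H2A, 20.4% in H2B, 14.6% in H3 and 28.8% in H4 genes. For 12 members it was 0%. The 500 bases before the start codon were more often unique, with medians of 100% in H1, H3 and H4, 76.2% in H2A and 82.3% in H2B genes. This property matters here because the authors removed reads of low mapping quality, as reads that fit several places equally well have.

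No library had a peak at 9 members, and 6 of them are neighbours inside an inverted repeat of chromosome 13. Hist1h2bq, Hist1h2ao, Hist1h4m, Hist1h4n, Hist1h2ap and Hist1h2br lie between 21806612 and 21837530. By alignment with blastn, the stretch from 21792963 to 21812409 matches the stretch from 21831532 to 21850923 in opposite orientation with 98.9% identity, in arms of 19.4 kb that lie 19.1 kb apart. No library had any peak in either arm, and the nearest peak to these genes lay between 14.5 and 45.4 kb away. Of the 50-base windows in each of the 6 genes and 1 kb on either side, 0% to 11.5% occur once in the genome, and of 150-base windows 0% to 29.9%. With so few unique windows, the lack of a peak there cannot be told apart from a lack of usable reads.

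**Figure D4:**
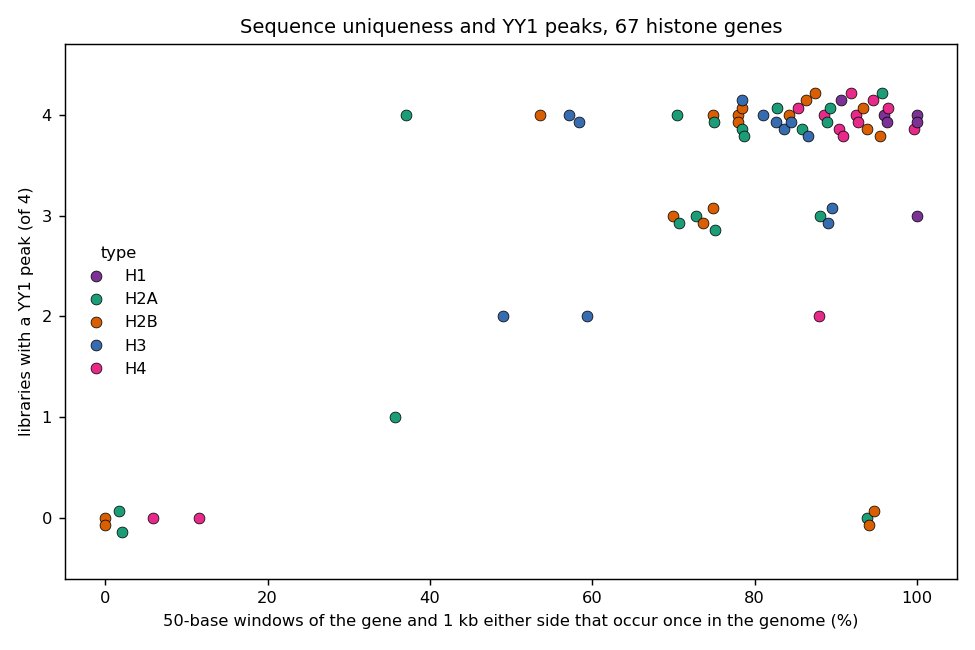
Number of libraries with a YY1 peak (vertical axis, 0 to 4, points spread to be visible) against the share of 50-base windows in the gene and 1 kb either side that occur once in the genome (%, horizontal axis) for the 67 members, coloured by type. The 6 genes of the inverted repeat lie at 11.5% or below with no peak, and the 3 other genes without a peak lie at 93.9% or above.

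The other 3 members without a peak lie in unique sequence. They are the testis pair Hist1h2ba and Hist1h2aa (chromosome 13, 23933773 to 23934851), with 94.1% and 93.9% of windows unique, and Hist3h2ba (chromosome 11, 58948920 to 58949533) with 94.7%. The nearest peak lay 19.3 kb or more from the testis pair and 4.5 kb or more from Hist3h2ba. Hist1h2ba and Hist1h2aa encode the H2B and H2A of developing sperm. Of the 3 testis histone genes, 2 had no peak. Hist1h1t had peaks within 1 kb in 3 libraries, none of them overlapping the gene. Outside the repeat, 57 of 61 members (93.4%) had a peak in at least 2 libraries.

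Members with a peak in some libraries lacked it mainly in the shallower ones. There were 14 with a peak in 1 to 3 libraries. Of these 14 had a peak in XistΔ/Δ replicate 2, 13 in WT replicate 2, 7 in XistΔ/Δ replicate 1 and 3 in WT replicate 1. Hist1h2ah, Hist1h2bk, Hist1h2ag, Hist1h2bj, Hist1h2af, Hist1h3g and Hist1h1t lacked one in WT replicate 1, whereas Hist1h2bf, Hist1h2ad and Hist1h3d lacked one in XistΔ/Δ replicate 1. Hist1h4k, Hist2h3c2 and Hist2h3c1 had one in both replicate 2 libraries and in no other. The median share of unique windows was 74.2% for these 14 members and 86.5% for the 44 with a peak in every library, and the ranges overlapped (35.7% to 100% and 37.1% to 100%). The part of sequence uniqueness and of depth in these calls was not tested.

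Within the chromosome 13 cluster, blocks of neighbouring genes differed in their cover. On chromosome 13, 46 of 54 members (85.2%) had a peak in at least 2 libraries. The largest block of that chromosome, Hist1h4h to Hist1h1a (23531050 to 23764406), had one at 29 of 29 members, and peaks filled 12.4% and 21.5% of its span in WT against 11.5% and 21.7% in XistΔ/Δ. It also encloses Hfe, a regulator of iron uptake and the only other protein-coding gene inside any block, which had a peak in every library but XistΔ/Δ replicate 1. The block Hist1h2bl to Hist1h2br, which holds the repeat, had one at 12 of 18 members. The short block Hist1h2ah to Hist1h2bj had one at 5 of 5, but only 1 of these was covered in all 4 libraries. In that block peaks filled 9.23% of the span in WT replicate 1 and 59.4% in WT replicate 2, and 20.3% and 60.6% in XistΔ/Δ.

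On chromosome 3, 9 of 10 members had a peak in at least 2 libraries. Hist2h2ab, Hist2h2ac and Hist2h2be shared 1 peak, which measured 2776 and 3497 bp in WT against 2607 and 3491 bp in XistΔ/Δ. Hist2h3b and Hist2h2bb shared another, of 2430 and 2706 bp in WT against 2115 and 2720 bp in XistΔ/Δ. Hist2h4 had peaks of 626 and 2830 bp in WT against 1384 and 2733 bp in XistΔ/Δ. These 6 genes were covered in every library, with the wider peak in replicate 2 of each genotype.

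The remaining 4 genes of chromosome 3 share their coding sequences with other copies. Hist2h3c2 had peaks only in the replicate 2 libraries, of 628 bp in WT and 501 bp in XistΔ/Δ, and Hist2h3c1 only there as well, of 1525 and 758 bp. Hist2h2aa1 had peaks of 661 and 845 bp in WT against 501 and 647 bp in XistΔ/Δ. Hist2h2aa2 had 1 peak, of 501 bp in XistΔ/Δ replicate 2. Their coding sequences hold no unique 50-base window, so the widths of their peaks cannot be told apart from losses of reads that fit several copies.

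The smallest clusters hold 3 genes, of which 2 had a peak in every library. On chromosome 11, Hist3h2a had peaks of 501 and 1438 bp in WT against 933 and 1454 bp in XistΔ/Δ, whereas Hist3h2ba, in the same block of 7911 bp, had none. On chromosome 6, Hist4h4 had peaks of 1538 and 1898 bp in WT against 1287 and 1828 bp in XistΔ/Δ. At both genes replicate 2 had the wider peak in each genotype.

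The number of histone genes with a peak was compared between genotypes over the libraries. WT libraries had a mean of 52 ± 7.07 members with a peak (SD, n = 2), and XistΔ/Δ libraries one of 54.5 ± 4.95 (SD, n = 2). The difference of 2.5 genes is below the SD of either genotype, with p = 0.667 in a two-sided exact permutation test. With 2 libraries a genotype this test cannot give a p below 0.333. Within replicate 1 the XistΔ/Δ library had 4 more members with a peak than the WT library, and within replicate 2 it had 1 more. With the same number of peaks taken from the top of every list, 47 and 56 members had one in WT against 46 and 55 in XistΔ/Δ.

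Histone regions ranked high in width in all 4 libraries. The widest peak of each region was turned into a percentile among the 14168 consensus regions of the library, with 0 for no peak. Over the 36 histone regions the median percentile was 75 and 91.9 in WT replicates 1 and 2 against 76.5 and 93.9 in XistΔ/Δ. Over the 8183 regions at starts of other protein-coding genes it was 66 and 64.2 in WT against 64.9 and 63.8 in XistΔ/Δ. The histone regions thus stood higher by more in the replicate 2 libraries. Where a region had a peak, the median widest peak was 1419 and 2321 bp in WT against 1045 and 2476 bp in XistΔ/Δ. At other gene starts it was 1003 and 1289 bp in WT against 894 and 1287 bp in XistΔ/Δ. Of the 36 histone regions 19 held 2 or more members, and the part of this in their width was not tested. On chromosome 13 the 28 regions had medians of 81.2 and 92 in WT against 76.5 and 94.3 in XistΔ/Δ, and on chromosome 3 the 6 regions had medians of 51.1 and 84.9 in WT against 65.7 and 59.6 in XistΔ/Δ.

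**Figure D5:**
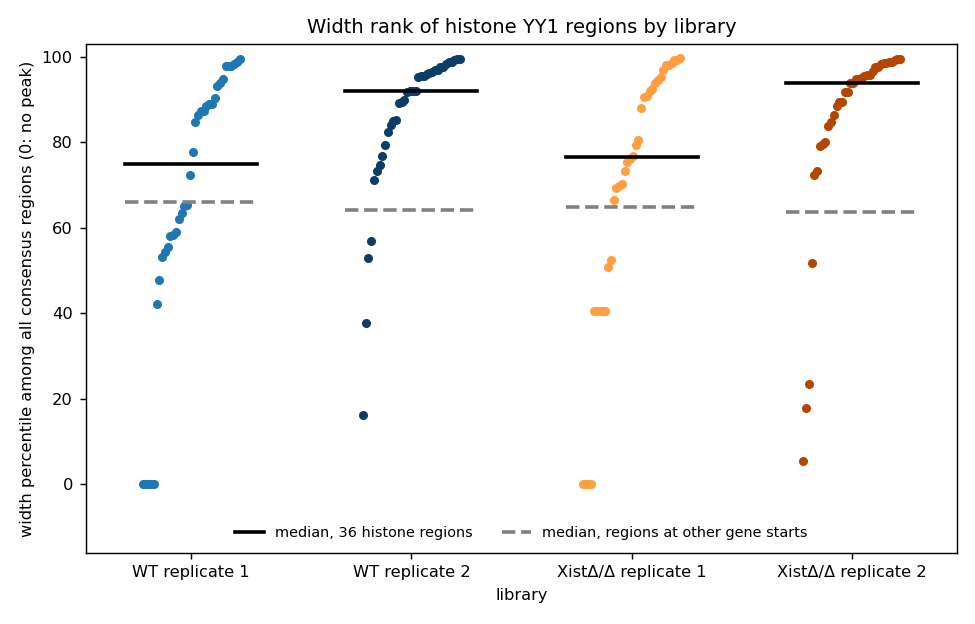
Width percentile of the 36 histone regions (points, vertical axis, 0 for no peak) in each library (horizontal axis), with the median of the histone regions as a black line and that of the regions at other gene starts as a grey dashed line. The black line is above the grey one in all 4 libraries, by more in the replicate 2 libraries.

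Few histone regions were set apart by genotype. Percentiles did not overlap between genotypes at 5 of 36, with 4 higher in XistΔ/Δ (11.1%, where 11.7% of all consensus regions were) and 1 lower (2.78%, where 11.2% of all were). Each of the 5 had p = 0.333 in the two-sided exact permutation test, which is the smallest it can give. The region of Hist3h2a had percentiles of 42.1 and 71.3 in WT against 75.3 and 72.4 in XistΔ/Δ. That of Hist1h4h had 93.1 and 91.9 in WT against 95.3 and 93.8 in XistΔ/Δ. That of Hist1h4f and Hist1h1d had 90.4 and 91.9 against 97 and 94.8. That of Hist1h4a, Hist1h3a and Hist1h1a had 97.8 and 99.4 against 99.8 and 99.5. It was called as 2 peaks in WT replicate 1, of which only the wider was ranked, and as 1 peak in each other library. That of Hist1h4b, the one that was lower, had 55.6 and 53 in WT against 50.9 and 51.8 in XistΔ/Δ. Except at Hist3h2a, the mean difference was under 5 percentile points. Compared within replicate numbers (a replicate block), 12 regions (33.3%) were higher in XistΔ/Δ in both replicates, where 19.6% of all regions were, and 7 (19.4%) were lower in both, where 18.8% were. Without any 1 library, between 17 and 22 histone regions did not overlap, with more higher than lower when WT replicate 2 or XistΔ/Δ replicate 1 was left out and more lower than higher when either of the other libraries was.

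The promoters were searched for motifs as exact letters on both strands. RefSeq promoters of 300 bases were matched for 62 members. The YY1 letters GCCATNTT occurred in 6 of them (9.68%), where 6.05% of all 32851 promoters held them. AAGATGGC, whose every match is also a match of GCCATNTT, occurred in 0, and in 2.75% of all promoters. The 6 promoters with YY1 letters were those of Hist1h3h, Hist1h4h, Hist1h2bh, Hist1h2ae, Hist1h2bg and Hist2h3b. Hist1h2ae and Hist1h2bg form a divergent pair with starts 176 bp apart, so 1 site may be counted in both. Of the 52 promoters of members with a peak in at least 2 libraries, 46 lacked these letters, which says only that these letters are not in that window.

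Of the other elements, CCAAT and the octamer were unevenly spread over the histone types and TATAAA occurred in all of them, with no test of the differences. CCAAT occurred in 85.5% of member promoters and in 37.4% of all promoters. It was present in every matched H1, H2A, H2B and H3 promoter and in 3 of 12 H4 promoters. TATAAA occurred in 56.5% of member promoters against 13.6% of all, and in 40% (H3) to 66.7% (H1 and H4) of the promoters of a type. The octamer ATTTGCAT was found in 7 of 18 H2A and 7 of 16 H2B promoters and in no H1, H3 or H4 promoter, against 1.74% of all. Many of these H2A and H2B promoters are the same stretch read from both ends. The H1 box letters AAACACA were found in 5 of 6 H1 promoters, the exception being that of Hist1h1a printed above, against 7.18% of all, and in 2 H2A and 2 H2B promoters.

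Related genes were counted beside the share of all protein-coding genes, which was 36.5% with a peak in all 4 libraries and 48.8% in at least 2. Of 11 replication-independent histone genes, 9 (81.8%) had a peak in all 4 libraries. H3f3a, which encodes the variant H3.3, had peaks of 2998 and 3783 bp in WT against 2875 and 3842 bp in XistΔ/Δ. H2afz, which encodes H2A.Z, had peaks of 2454 and 2617 bp in WT against 862 and 2566 bp in XistΔ/Δ. H2afy2 and H1fx had none. Of 15 genes for factors of histone gene transcription and mRNA processing, 15 had a peak in at least 2 libraries and 13 (86.7%) in all 4. Npat, the coactivator of histone gene transcription in S phase, had peaks of 1406 and 2066 bp in WT against 627 and 1011 bp in XistΔ/Δ. It was picked after its values were seen, and its widths in bp were not ranked or set beside a share of all regions. A genotype difference at Npat was not tested. Slbp, which binds the stem-loop of histone mRNAs, had peaks of 1124 and 2118 bp in WT against 1087 and 2095 bp in XistΔ/Δ. Pou2f1 had peaks of 3178 and 3531 bp in WT against 2946 and 3242 bp in XistΔ/Δ.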

How the data were processed

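The study profiled YY1 by ChIP-seq on micrococcal nuclease-digested chromatin. Per the labels and methods, the authors trimmed paired-end reads with Trim Galore, aligned them to mm10 with Bowtie2 2.3.5.1, removed reads with mapping quality under 30 with SAMtools 1.10 and removed duplicates. Peaks were called in each library alone with HOMER 4.9.1 (false discovery rate 0.001, 4 fold over the surroundings, no input), so they also reflect copy number and open chromatin. The deposited lists hold peak positions and a score, which is 1 for every peak and was not used. Width served as the rank.

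Peaks sharing at least 1 bp were merged, and regions called in at least 2 libraries were kept (Python 3.11.15, numpy 2.4.6, scipy 1.17.1). Steps were tested on simulated peaks. Uniqueness was counted as exact matches of 50-base and 150-base windows on both strands of GRCm38. The repeat was aligned with blastn 2.17.0 and the stretch between starts with Biopython 1.88. Gene models can be long: that of Hist1h2be spans 37455 bp. Genotypes were compared over 2 libraries each with exact permutation tests. Replicate numbers are those of the labels. The headers number the replicates otherwise, but carry another number, of unstated meaning, that the libraries of a replicate number share. It was treated as a possible batch.

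The members, lists and tests were chosen with earlier results of these data known. Named genes are the members without a peak, the H1 and testis genes, those of chromosomes 3, 11 and 6, the widest by rank per type, the regions with most members and those not overlapping between genotypes. Members lacking a peak in some libraries, and related genes given with values, were picked after values were seen.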

Additional observations from a re-analysis of the deposited data

How the results depend on the processing

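The count of 57 members with a peak in at least 2 libraries was between 40 and 58 under the alternatives and never moved by over 1.5 times. It was 55 for peaks touching the gene body (82.1%, against 47.7% of all protein-coding genes) and 58 within 3 kb (86.6%, against 50.4%). It was 40 when each peak was given to the nearest gene start alone, a rule for which no share of all genes is given. Without any 1 library the count was 54 to 57. In divergent pairs, 20 members had a peak, but 12 when each peak was given to the nearest gene start, by construction. The difference of 2.5 genes between genotypes was -1 with lists of equal length and between -2.5 and 7.5 without any 1 library, so its direction is not settled. The count of 5 regions not overlapping between genotypes was 19 with a replicate block (12 higher and 7 lower in XistΔ/Δ, 33.3% and 19.4%, where 19.6% and 18.8% of all regions were), and between 17 and 22 without any 1 library. Higher and lower regions made up 19.4% and 36.1% without WT replicate 1 (25.4% and 32.8% of all), 48.5% and 15.2% without WT replicate 2 (33.3% and 35.3%), 38.9% and 8.33% without XistΔ/Δ replicate 1 (31.9% and 25.5%), and 26.5% and 38.2% without XistΔ/Δ replicate 2 (38.6% and 32.5%). The direction thus changed with the library left out. The replicate block left the difference of 2.5 genes as it was. Deviations from the genotype means correlated between same-numbered libraries over the 36 histone regions (r = 0.58, against 0.28 over all consensus regions, across regions, which are not independent), and 2 pairs cannot establish that the numbers pair the samples. The mean over libraries of the median width percentile, 84.3, lay between 77.8 and 89.4. Leaving out the 6 members in the repeat, an alternative chosen after seeing the data, left 57 members with a peak. The lists hold no value for a gene without a peak, and tag counts per peak were not analysed here.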
